A study of Mus musculus with 8 samples.

Results

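The genes described here are 10 matricellular and activated fibroblast genes of the pressure-overloaded heart, Postn, Thbs1, Thbs4, Tnc, Spp1, Sparc, Cilp, Ltbp2, Fstl1 and Tgfb2, out of 25929 genes listed in an RNA-sequencing table of mouse hearts. They were chosen by name, and each symbol matched 1 Ensembl gene in the table. The study asked how endogenous n-3 polyunsaturated fatty acids (PUFAs) act on the heart under pressure overload, and it compared wild-type (WT) mice with littermates carrying fat-1, a Caenorhabditis elegans transgene for an n-3 fatty acid desaturase that makes n-3 from n-6 PUFAs. Mice aged 3 months underwent transverse aortic constriction (TAC), which narrows the aortic arch and raises the load on the left ventricle, or a sham operation without the constriction. The 4 groups were WT-Sham (C57BL/6, sham), WT-TAC (C57BL/6, TAC), Fat1-Sham (Fat-1, sham) and Fat1-TAC (Fat-1, TAC), with 2 libraries each. A library is called by its group and its number, for example WT-TAC1. The labels call the 2 libraries of a group independent samples and the tissue ventricular, whereas the methods name whole hearts. The sources used here do not name the promoter that drives the transgene, and fat-1 mRNA itself was not analysed here because the table lists mouse genes.

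Matricellular proteins are secreted into the extracellular matrix but do not form its fibres. They bind collagens, integrins and growth factors and change how cells attach, migrate and respond to transforming growth factor beta (TGF-beta). In the healthy adult heart most are made at low levels, and they are known as products of activated fibroblasts, the cells that lay down scar and interstitial matrix after infarction or pressure overload.

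Of the 10 genes, 1 passed the test in 1 comparison. Thbs1 was downregulated in Fat1-TAC hearts relative to WT-TAC hearts, from a mean of 15.1 to 4.75 FPKM, and its sham values differed by a similar amount without passing the test. Fat1-TAC against WT-TAC called 1.39% of all tested genes down, and Thbs1 was called there in 5 of 17 alternative settings. In the WT hearts no gene of the 10 passed the test for TAC against sham, although both WT-TAC libraries exceeded both WT-Sham libraries for Spp1 and Ltbp2, as they did for 52.5% of all tested genes. Levels of 7 of the 9 genes that could be tested were lower in both Fat1-Sham libraries than in both WT-Sham libraries, as were those of 16.5% of all tested genes. The summed level of 12 resting fibroblast markers was also lower in the fat-1 groups than in WT-TAC and WT-Sham2, and it is given beside these results, since in bulk tissue fewer cells of a type and less RNA per cell cannot be told apart.

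Levels are FPKM, fragments scaled to transcript length and to library depth. Depth was between 14163994 and 21218331 fragments per library. A gene was called at a limma p adjusted by Benjamini-Hochberg under 0.1 and a fold change over 1.5, on the scale of log2(FPKM + 1), which understates changes of low genes, and the test covered 14442 genes that reached 1 FPKM in 2 libraries or more. Of the 10 genes, 9 were tested, and Tnc was not because a single library exceeded 1 FPKM. With 2 libraries a group, p-values measure the spread between these libraries alone, and an exact permutation test of 2 against 2 cannot go below 0.33.

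Libraries of WT-TAC hearts held mRNA of other tissues. The summed level of 6 thymocyte markers was 1411 FPKM in WT-TAC1 and 0.265 to 1.40 FPKM in the other 7 libraries, with Rag1 at 0 in 6 of those, and that of 6 skeletal muscle markers was 138 FPKM in WT-TAC1 and 3.87 to 8.90 FPKM elsewhere. Airway and epithelium markers summed to 1739 FPKM in WT-TAC1, 3958 FPKM in WT-TAC2, 82.5 FPKM in Fat1-Sham1 and 2.47 to 5.54 FPKM in the other 5 libraries. Adipocyte markers summed to 612 and 792 FPKM in WT-TAC and 6.23 to 295 FPKM elsewhere. Mesothelium markers summed to 65.3 and 80.8 FPKM in WT-TAC and 19.6 to 44.6 FPKM elsewhere, and cartilage markers to 13.6 and 18.6 FPKM in WT-TAC and 3.20 to 5.88 FPKM elsewhere. The part of these tissues in the values of the 10 genes was not tested. Tendon markers summed to 18.9 to 40.7 FPKM in the 4 WT libraries and 12.2 to 18.7 FPKM in the 4 fat-1 libraries. Fmod alone gave 12.1 to 23.7 FPKM of the WT sums and 6.21 to 9.21 FPKM of the fat-1 sums. Scx ran the other way after TAC, at 3.46 and 3.72 FPKM in WT-TAC and 6.22 and 7.91 FPKM in Fat1-TAC. WT-TAC1 was lowest for endothelial markers, at 199 FPKM against 271 to 302 FPKM elsewhere. Its sum of smooth muscle markers was also the lowest, at 563 FPKM against 926 to 1166 FPKM. Des held 425 FPKM of this sum, against 789 to 1087 FPKM elsewhere. Cnn1, Myh11 and Mylk were higher in WT-TAC1 than in every library but WT-TAC2, and Lmod1 and Smtn lay within the range of the others. Cardiomyocyte markers were abundant throughout, at 25669 FPKM in WT-TAC1 and 47006 to 62321 FPKM elsewhere. The median log2 fold change of all tested genes was 0.390 for TAC in WT hearts and -0.404 for Fat1-TAC against WT-TAC. The airway markers in both WT-TAC libraries cannot be told apart from the WT-TAC group.

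Promoter sequences are shown for the 4 genes whose levels were higher in both Fat1-TAC libraries than in both Fat1-Sham libraries, Postn, Thbs4, Spp1 and Tgfb2. None of the 4 passed the test in that comparison, and 26.8% of all tested genes were higher in the same way. RefSeq windows of the assembly GRCm38.p6 matched 9 of the 10 genes, all but Thbs1, in 12 windows. Each sequence is the 250 bases before an annotated start, read 5′ to 3′ on the strand of the gene, and capitals mark matches to a searched motif. Postn and Spp1 have 2 windows each, of which the one with a match is shown, and the other held none of the searched motifs.
Postn, chr3:54360857-54361106, plus strand: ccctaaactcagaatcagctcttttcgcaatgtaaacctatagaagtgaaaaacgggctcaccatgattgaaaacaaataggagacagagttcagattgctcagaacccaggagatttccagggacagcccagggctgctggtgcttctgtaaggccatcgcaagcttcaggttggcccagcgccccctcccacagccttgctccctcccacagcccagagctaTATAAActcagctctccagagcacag
Thbs4, chr13:92794819-92795068, minus strand: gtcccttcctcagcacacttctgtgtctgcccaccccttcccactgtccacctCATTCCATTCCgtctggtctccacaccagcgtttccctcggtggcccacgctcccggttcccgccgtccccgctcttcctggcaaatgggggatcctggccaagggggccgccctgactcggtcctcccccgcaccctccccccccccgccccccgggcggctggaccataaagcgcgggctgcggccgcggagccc
Spp1, chr5:104434861-104435110, plus strand: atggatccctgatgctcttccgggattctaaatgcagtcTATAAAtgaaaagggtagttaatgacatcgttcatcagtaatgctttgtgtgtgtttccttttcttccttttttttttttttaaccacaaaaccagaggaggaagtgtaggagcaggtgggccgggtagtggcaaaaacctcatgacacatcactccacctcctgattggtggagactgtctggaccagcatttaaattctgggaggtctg
Tgfb2, chr1:186705990-186706239, minus strand: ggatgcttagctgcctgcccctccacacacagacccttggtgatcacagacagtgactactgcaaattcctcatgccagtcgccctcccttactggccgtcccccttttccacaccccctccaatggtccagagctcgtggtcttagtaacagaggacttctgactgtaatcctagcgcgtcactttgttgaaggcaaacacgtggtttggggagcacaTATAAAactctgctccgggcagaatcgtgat
On both strands, 4 motifs were searched: the TATA box TATAAA, the TEAD motif GGAATG, the AP-1 motif TGANTCA and the SMAD CAGA box AGCCAGACA. TATAAA lay 26 to 21 bases before the start shown for Postn, 31 to 26 bases before that of Tgfb2 and 211 to 206 bases before that shown for Spp1, and 12.4% of 32851 windows of this length hold it. The Thbs4 window held GGAATG as its reverse complement at 197 to 192 and at 192 to 187 bases before the start, matches that share 1 base, and 12.6% of windows hold this motif. None of the 12 windows held TGANTCA, which is in 6.75% of all windows, or AGCCAGACA, which is in 0.301%.

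Sparc was the most abundant of the 10 genes in these hearts, with a mean of 338 FPKM over 8 libraries, above 99.0% of listed genes. Fstl1 followed with 109 FPKM and Postn with 30.6 FPKM, and the ranges of these 3 genes did not overlap, whereas those of Postn and Thbs1 did. Thbs1 (9.18 FPKM), Tgfb2 (6.59 FPKM), Cilp (6.37 FPKM), Thbs4 (5.54 FPKM) and Ltbp2 (5.04 FPKM) had overlapping ranges, so their order is within the spread between libraries. Tnc (2.17 FPKM) and Spp1 (2.16 FPKM) had the lowest means and the largest ratios of highest to lowest library, 65.3 and 14.2. The ratio was 1.57 for Sparc.

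**Figure D1:**
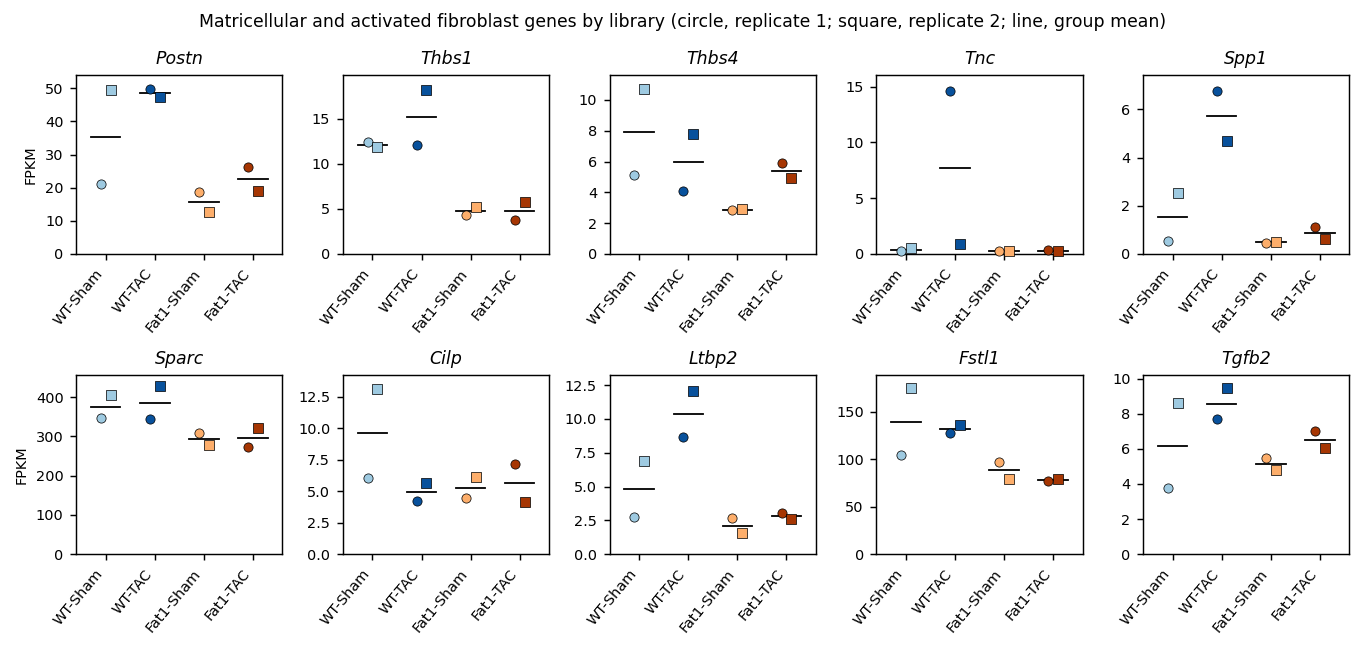
FPKM of each of the 10 genes (vertical axes from 0) in the 8 libraries, grouped by genotype and surgery, with a circle for replicate 1, a square for replicate 2 and a line at the group mean. Thbs1 lies between 11.8 and 18.2 FPKM in the 4 WT libraries and between 3.72 and 5.77 FPKM in the 4 fat-1 libraries, and Tnc is high in WT-TAC1 alone.

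Thbs1 encodes thrombospondin 1, which binds CD36 and CD47 and releases active TGF-beta from its latent complex, and the gene lies on chr2:118111876-118127133 (plus strand, GRCm38). It measured 12.4 and 11.8 FPKM in WT-Sham1 and WT-Sham2, 12.1 and 18.2 FPKM in WT-TAC1 and WT-TAC2, 4.27 and 5.22 FPKM in Fat1-Sham1 and Fat1-Sham2, and 3.72 and 5.77 FPKM in Fat1-TAC1 and Fat1-TAC2. Every WT library lay above every fat-1 library, and within each genotype the sham and TAC libraries overlapped. In Fat1-TAC against WT-TAC the log2 fold change was -1.49 (SE 0.27, n = 2 each, limma, Benjamini-Hochberg adjusted p = 0.0836), the only call among the 9 tested genes in this comparison, where 1.39% of all tested genes were called down.

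The sham hearts gave a log2 fold change of -1.20 (SE 0.27) for Thbs1, with a 95% interval of -1.83 to -0.56, and it did not pass the test (limma, adjusted p = 1.0, unadjusted p = 0.00293). The 2 genotype comparisons share no library. TAC changed Thbs1 by 0.27 (95% interval -0.36 to 0.91) in WT hearts and by -0.02 (-0.65 to 0.62) in fat-1 hearts on the log2 scale, and neither passed the test. The difference between these changes, the interaction of genotype and surgery, was -0.29 (SE 0.38, limma adjusted p = 0.671).

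The Thbs1 call in Fat1-TAC against WT-TAC depended on the processing. Its log2 fold change kept its sign in 17 alternative settings, between -1.76 and -0.78, and it was called in 5 of them, with limma adjusted p-values from 0.00463 to 0.469. Without WT-TAC1, the library with thymocyte and skeletal muscle mRNA, it was -1.76 (SE 0.24, limma adjusted p = 0.0890), and with median-of-ratios scaling, which brings the median of all genes to -0.002, it was -1.07 (SE 0.33, limma adjusted p = 0.241) and no longer called. The call was also lost without any 1 of the WT-Sham, Fat1-Sham or Fat1-TAC libraries, with limma adjusted p-values of 0.142 and 0.143, 0.146 and 0.150, and 0.469 and 0.127 for replicates 1 and 2.

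Thbs4 encodes thrombospondin 4, a family member found in heart and tendon, on chr13:92751590-92794818 (minus strand, GRCm38). It measured 5.14 and 10.7 FPKM in WT-Sham1 and WT-Sham2, 4.09 and 7.80 FPKM in WT-TAC1 and WT-TAC2, 2.85 and 2.91 FPKM in Fat1-Sham1 and Fat1-Sham2, and 5.90 and 4.92 FPKM in Fat1-TAC1 and Fat1-TAC2. The WT libraries overlapped between surgeries, whereas both Fat1-TAC libraries lay above both Fat1-Sham libraries. The log2 fold change of TAC was -0.34 (95% interval -1.22 to 0.54) in WT hearts and 0.72 (-0.16 to 1.61) in fat-1 hearts, and the interaction was 1.06 (SE 0.53, limma adjusted p = 0.495). The interaction was called without WT-TAC2 (1.46, SE 0.45, limma adjusted p = 0.0391), a setting in which 6.43% of all genes were called in that direction and WT-TAC1 alone stood for its group. In sham hearts the genotype difference was -1.13 (SE 0.38, limma adjusted p = 1.0, unadjusted p = 0.0195).

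Tgfb2 encodes TGF-beta 2, a ligand that drives fibroblasts towards matrix production, and it lies on chr1:186622792-186705989 (minus strand, GRCm38). It measured 3.75 and 8.59 FPKM in WT-Sham1 and WT-Sham2, 7.67 and 9.44 FPKM in WT-TAC1 and WT-TAC2, 5.45 and 4.81 FPKM in Fat1-Sham1 and Fat1-Sham2, and 7.03 and 6.03 FPKM in Fat1-TAC1 and Fat1-TAC2. Both Fat1-TAC libraries lay above both Fat1-Sham libraries and below both WT-TAC libraries, while WT-Sham spanned nearly the whole range. None of its comparisons passed the test, with log2 fold changes of 0.50 (95% interval -0.29 to 1.29) for TAC in WT hearts and 0.30 (-0.49 to 1.09) in fat-1 hearts.

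Ltbp2 encodes latent TGF-beta binding protein 2, which binds fibrillin microfibrils and, unlike its relatives, does not bind latent TGF-beta, and it lies on chr12:84783212-84876532 (minus strand, GRCm38). It measured 2.78 and 6.91 FPKM in WT-Sham1 and WT-Sham2, 8.67 and 12.1 FPKM in WT-TAC1 and WT-TAC2, 2.67 and 1.55 FPKM in Fat1-Sham1 and Fat1-Sham2, and 3.05 and 2.59 FPKM in Fat1-TAC1 and Fat1-TAC2. The WT-TAC libraries were the highest of the 8, and the fat-1 libraries overlapped between surgeries. TAC gave a log2 fold change of 1.04 (SE 0.39, limma adjusted p = 0.176) in WT hearts and 0.32 (SE 0.39, limma adjusted p = 1.0) in fat-1 hearts. Fat1-TAC against WT-TAC gave -1.56 (SE 0.39, limma adjusted p = 0.138), a comparison that shares the WT-TAC libraries with the first. The interaction was -0.72 (95% interval -2.01 to 0.57).

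Postn encodes periostin, which promotes collagen cross-linking and marks activated fibroblasts, on chr3:54361109-54391037 (plus strand, GRCm38). It measured 21.2 and 49.5 FPKM in WT-Sham1 and WT-Sham2, 49.7 and 47.3 FPKM in WT-TAC1 and WT-TAC2, 18.7 and 12.8 FPKM in Fat1-Sham1 and Fat1-Sham2, and 26.2 and 19.1 FPKM in Fat1-TAC1 and Fat1-TAC2. WT-Sham2 was as high as the WT-TAC libraries, so WT-Sham and WT-TAC overlapped, and WT-Sham1 lay within the range of the fat-1 libraries. TAC gave log2 fold changes of 0.57 (95% interval -0.34 to 1.47) in WT hearts and 0.50 (-0.40 to 1.41) in fat-1 hearts, and neither passed the test. The genotype difference was -1.02 (SE 0.38, limma adjusted p = 1.0) after sham and -1.08 (SE 0.38, limma adjusted p = 0.163) after TAC.

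Spp1 encodes osteopontin, a ligand of alpha v integrins and CD44 made by fibroblasts and macrophages, on chr5:104435118-104441050 (plus strand, GRCm38). It measured 0.531 and 2.53 FPKM in WT-Sham1 and WT-Sham2, 6.78 and 4.71 FPKM in WT-TAC1 and WT-TAC2, 0.476 and 0.481 FPKM in Fat1-Sham1 and Fat1-Sham2, and 1.11 and 0.622 FPKM in Fat1-TAC1 and Fat1-TAC2. Both WT-TAC libraries lay above the other 6, and both Fat1-Sham libraries below the other 6. These levels rest on 8 to 143 fragments a library, the thinnest counts among the 9 tested genes. Fat1-Sham1 and Fat1-Sham2 held 9 and 10 fragments and WT-Sham1 held 8, so the order of these libraries rests on their depth. The log2 fold change of TAC was 1.52 (SE 0.41, limma adjusted p = 0.175) in WT hearts and 0.32 (SE 0.41, limma adjusted p = 1.0) in fat-1 hearts, and the interaction was -1.20 (95% interval -2.55 to 0.15). Fat1-TAC against WT-TAC gave -1.85 (SE 0.41, limma adjusted p = 0.120). The summed level of 10 macrophage markers was also highest in WT-TAC, at 508 to 681 FPKM against 350 to 427 FPKM in WT-Sham, 316 to 320 FPKM in Fat1-Sham and 298 to 315 FPKM in Fat1-TAC, and its part in the Spp1 values was not tested.

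Tnc encodes tenascin C, a large matrix glycoprotein expressed in development and injury, on chr4:63959785-64047015 (minus strand, GRCm38). It measured 14.6 FPKM in WT-TAC1 and 0.855 FPKM in WT-TAC2. The other 6 libraries lay between 0.224 and 0.496 FPKM. WT-TAC1 was thus 17.1 times the next highest library, with 1738 fragments against 92. This is the library with thymocyte and skeletal muscle mRNA, and the part of those tissues in the Tnc value was not tested. Without a filter on low values the log2 fold change of WT-TAC against WT-Sham was 1.99 (SE 0.90, limma adjusted p = 0.252). The tested genes with the pattern most like Tnc were Epsti1, Cep97 and Arhgdib, by a mean absolute difference of 0.056, 0.072 and 0.076 in log2(FPKM + 1) centred on each gene's mean over 8 libraries. All 3 were highest in WT-TAC1, at 34.6, 48.0 and 144 FPKM.

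**Figure D2:**
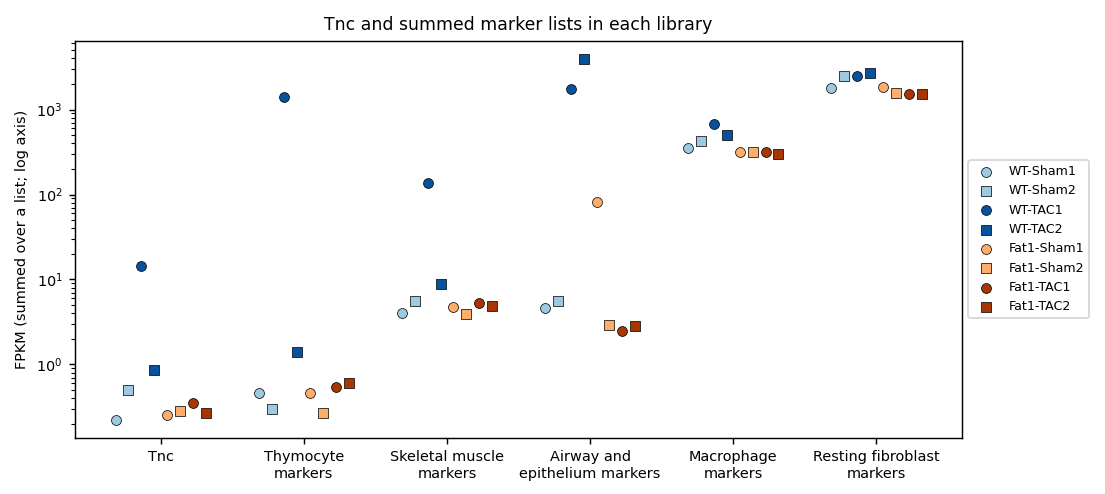
Tnc and the summed FPKM of 5 marker lists (log axis) in the 8 libraries, with color for the group and shape for the replicate. WT-TAC1 stands apart for Tnc, thymocyte and skeletal muscle markers, both WT-TAC libraries stand apart for airway markers, and fibroblast markers vary between 1515 and 2719 FPKM.

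The patterns nearest to Spp1 were those of Ccl8, a chemokine, Tubb3, a beta tubulin, and Anxa1, annexin A1, with mean absolute differences of 0.155, 0.195 and 0.208 over the 8 libraries. Nearest to Ltbp2 were Slc7a2, a cationic amino acid transporter, Abi3bp, a matrix protein, and Ctsk, the protease cathepsin K, with 0.145, 0.157 and 0.159. Ctsk, for example, measured 10.1 and 9.06 FPKM in WT-TAC, 3.5 and 7.98 FPKM in WT-Sham and 1.66 to 4.0 FPKM in the fat-1 libraries.

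Sparc encodes a collagen-binding glycoprotein that takes part in collagen assembly, on chr11:55394500-55423183 (minus strand, GRCm38). It measured 346 and 404 FPKM in WT-Sham1 and WT-Sham2, 344 and 427 FPKM in WT-TAC1 and WT-TAC2, 309 and 277 FPKM in Fat1-Sham1 and Fat1-Sham2, and 272 and 322 FPKM in Fat1-TAC1 and Fat1-TAC2. All 4 WT libraries lay above all 4 fat-1 libraries, by a small margin. TAC gave log2 fold changes of 0.04 (95% interval -0.39 to 0.47) in WT hearts and 0.02 (-0.41 to 0.45) in fat-1 hearts, and the genotype differences were -0.36 (SE 0.18) after sham and -0.37 (SE 0.18) after TAC, none of which passed the test.

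Fstl1 encodes follistatin-like 1, a secreted glycoprotein related to Sparc, on chr16:37776873-37836514 (plus strand, GRCm38). It measured 104 and 175 FPKM in WT-Sham1 and WT-Sham2, 128 and 136 FPKM in WT-TAC1 and WT-TAC2, 97.1 and 79.6 FPKM in Fat1-Sham1 and Fat1-Sham2, and 76.9 and 79.5 FPKM in Fat1-TAC1 and Fat1-TAC2. As for Sparc, the WT and fat-1 libraries did not overlap. The genotype difference was -0.61 (SE 0.24, limma adjusted p = 1.0) after sham and -0.75 (SE 0.24, limma adjusted p = 0.163) after TAC, and TAC gave -0.03 (95% interval -0.61 to 0.54) in WT hearts.

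Cilp encodes cartilage intermediate layer protein, a secreted protein of cardiac fibroblasts that binds TGF-beta 1, on chr9:65265180-65280605 (plus strand, GRCm38). It measured 6.05 and 13.1 FPKM in WT-Sham1 and WT-Sham2, 4.25 and 5.65 FPKM in WT-TAC1 and WT-TAC2, 4.44 and 6.14 FPKM in Fat1-Sham1 and Fat1-Sham2, and 7.12 and 4.14 FPKM in Fat1-TAC1 and Fat1-TAC2. Of the 9 tested genes it was the only one lower in both WT-TAC libraries than in both WT-Sham libraries, where 7.09% of all tested genes were. The log2 fold change of TAC in WT hearts was -0.76 (SE 0.39, limma adjusted p = 0.215), and in fat-1 hearts it was 0.05 (95% interval -0.87 to 0.97).

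In WT-TAC against WT-Sham, the comparison of TAC with sham in hearts without the transgene, 0 of the 9 genes were called by limma, beside 0.921% of all tested genes called up and 0.0138% called down. With limma-voom on recovered fragments the count was also 0. At an unadjusted limma p under 0.05 and over 1.5-fold, Spp1 and Ltbp2 were higher, 2 of 9 genes, where 22.7% of all tested genes were. These 2 were also the genes that lay higher in WT-TAC without overlap, where 52.5% of all tested genes did. The median log2 fold change of the 9 genes was 0.27, below the median of all tested genes of 0.390. With median-of-ratios scaling the log2 fold changes were 1.17 for Spp1, 0.63 for Ltbp2, 0.10 for Postn and 0.09 for Tgfb2, and they were negative for Thbs1 (-0.17), Sparc (-0.44), Fstl1 (-0.51), Thbs4 (-0.72) and Cilp (-1.14), so Thbs1 and Sparc changed sign.

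The log2 fold changes of TAC in WT hearts also depended on which WT-Sham library was kept. Without WT-Sham1 and without WT-Sham2 they were -0.03 and 1.16 for Postn, -0.01 and 1.0 for Tgfb2, 0.51 and 1.57 for Ltbp2, and 0.92 and 2.12 for Spp1. Those of Thbs4 were -0.80 and 0.12, those of Fstl1 -0.40 and 0.33, those of Sparc -0.08 and 0.15, and those of Cilp -1.26 and -0.26. Postn, Tgfb2, Thbs4, Fstl1 and Sparc thus differed in sign between the 2 settings, and 0 of the 9 genes were called by limma in either.

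WT-Sham2 lay over 1.5-fold above WT-Sham1 for 7 of the 9 tested genes, all but Thbs1 and Sparc, where 16.2% of all tested genes did. The ratio reached 4.76 for Spp1, 2.48 for Ltbp2 and 2.34 for Postn. The 12 resting fibroblast markers also summed higher in WT-Sham2, at 2489 FPKM against 1772 FPKM in WT-Sham1. The 6 tendon markers summed to 37.6 against 18.9 FPKM, with Chad at 8.25 against 0.588 FPKM. Scx alone among them was lower in WT-Sham2, at 4.44 against 5.66 FPKM. The 6 smooth muscle markers summed to 1046 against 931 FPKM, with Cnn1 at 25.0 against 3.73 FPKM and Myh11 at 29.9 against 9.08 FPKM. Chad, Scx, Cnn1 and Myh11 are named after their values were seen, and the part of these markers' cells in the difference was not tested.

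For Fat1-TAC against Fat1-Sham, the comparison of TAC with sham in transgenic hearts, 0 of the 9 genes were called by limma, beside 0.00692% of all tested genes called up and 0% called down. None was called by limma-voom, and none had an unadjusted limma p under 0.05 with a 1.5-fold change. Postn, Thbs4, Spp1 and Tgfb2, whose promoters are shown, were higher without overlap, 4 of 9 genes, where 26.8% of all tested genes were, and Fstl1 was lower, where 21.5% were. The largest of these log2 fold changes was 0.72 for Thbs4.

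For Fat1-Sham against WT-Sham, the comparison of genotypes without constriction, 0 of the 9 genes were called by limma or by limma-voom, and limma called 0% of all tested genes in either direction. At an unadjusted limma p under 0.05 and over 1.5-fold, 4 of 9 genes were lower, Thbs1, Thbs4, Postn and Fstl1, where 0.692% of all tested genes were. The 7 genes Postn, Thbs1, Thbs4, Spp1, Sparc, Ltbp2 and Fstl1 were lower without overlap, where 16.5% of all tested genes were, and 0 were higher. All 9 log2 fold changes were negative, with a median of -0.68 beside -0.015 for all tested genes. When scaled to fibroblast markers, Sparc (0.09) and Tgfb2 (0.25) turned positive, and the median of all tested genes was 0.362. Most of the 9 log2 fold changes before this scaling depended on WT-Sham2. Without it the log2 fold change was -0.42 for Postn, -0.31 for Ltbp2, -0.24 for Fstl1 and for Sparc, -0.18 for Cilp, -0.05 for Spp1 and 0.37 for Tgfb2, beside -0.66 for Thbs4 and -1.22 for Thbs1. Without WT-Sham1 all 9 were negative, from -1.61 for Postn to -0.47 for Sparc. These genes vary together across libraries and are not replicates of each other.

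For Fat1-TAC against WT-TAC, the comparison of genotypes after TAC, Thbs1 alone was called, 1 of 9 genes. Both WT-TAC libraries held airway mRNA, so genotype and tissue content cannot be told apart here. Postn, Thbs1, Spp1, Sparc, Ltbp2, Fstl1 and Tgfb2, 7 of 9 genes, were lower without overlap, where 57.1% of all tested genes were. At an unadjusted limma p under 0.05 and over 1.5-fold, 5 of 9 genes were lower, where 23.5% of all tested genes were. The median log2 fold change of the 9 genes was -0.75 beside -0.404 for all tested genes. Thbs1, Spp1, Ltbp2 and Postn kept a negative sign under median-of-ratios, quantile and fibroblast-marker scaling, whereas Tgfb2 and Thbs4 turned positive under all 3 (Tgfb2 0.07, 0.18 and 0.36, Thbs4 0.31, 0.44 and 0.61), Sparc under median of ratios (0.10) and fibroblast markers (0.42), and Fstl1 under fibroblast markers (0.04). The median of all tested genes was -0.002, 0.061 and 0.269 under these 3 scalings. Without WT-TAC2, 5 genes were called down (Postn, Thbs1, Spp1, Ltbp2 and Fstl1), in a setting where 46.1% of all genes were.

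**Figure D3:**
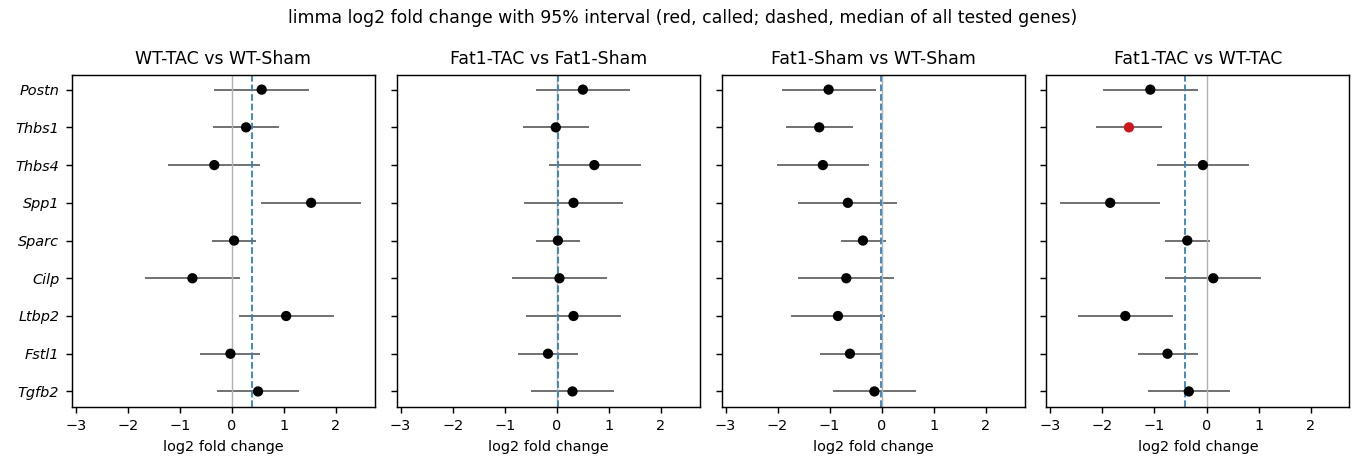
limma log2 fold changes on log2(FPKM + 1) (horizontal axes) of the 9 tested genes in 4 comparisons, with 95% intervals as bars, the median of all tested genes as a dashed line and called genes in red. Only Thbs1 in Fat1-TAC against WT-TAC (-1.49) is red, and all 9 points lie below 0 in Fat1-Sham against WT-Sham.

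The summed level of fibroblast markers differed between these libraries. All 12 resting fibroblast markers, among them Pdgfra, Tcf21 and Dcn, were above 0 in every library. Their sum was 1772 to 2489 FPKM in WT-Sham, 2459 to 2719 FPKM in WT-TAC, 1560 to 1825 FPKM in Fat1-Sham and 1515 to 1532 FPKM in Fat1-TAC. Gsn alone gave 827 to 1483 FPKM of these sums. Pdgfra was 19.1 to 23.3 FPKM in the WT libraries and 15.1 to 18.6 FPKM in the fat-1 libraries. Tcf21 overlapped between them, at 5.51 to 8.36 and 4.41 to 6.88 FPKM. Of these 12 markers Col1a2 (-1.26) and Col3a1 (-1.10) were called down in Fat1-TAC against WT-TAC, beside 1.39% of all tested genes. To put the 10 genes on the scale of these markers, each value was divided by the geometric mean of the 12 markers in its library, relative to its mean over libraries.

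Relative to fibroblast markers Fstl1 was nearly level over the 8 libraries, at 98.8 to 128 FPKM instead of 76.9 to 175 FPKM, and its WT and fat-1 libraries overlapped, as did those of Sparc at 272 to 431 FPKM. Thbs1 still separated the genotypes. It measured 13.9 and 8.66 FPKM in WT-Sham, 9.56 and 13.2 FPKM in WT-TAC, 5.02 and 6.89 FPKM in Fat1-Sham, and 4.98 and 7.72 FPKM in Fat1-TAC. It was the only one of the 9 tested genes with every fat-1 library below every WT library on this scale, where 0.242% of all tested genes were. On FPKM as deposited Thbs1, Sparc and Fstl1 were, 3 of 9 genes, where 4.56% were.

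The genotype difference averaged over both surgeries, a contrast chosen after the values were seen, gave 0 of 9 calls by limma (0.0346% of all tested genes were called down), with 5 genes at an unadjusted p under 0.05 and over 1.5-fold lower (7.39% of all tested genes). Thbs1 had a log2 fold change of -1.34 (SE 0.19, limma adjusted p = 0.137). Scaled to fibroblast markers, the same contrast called 3 of 9 genes, Spp1 (-0.87, SE 0.25, limma adjusted p = 0.0522), Thbs1 (-0.79, SE 0.23, limma adjusted p = 0.0545) and Ltbp2 (-0.70, SE 0.21, limma adjusted p = 0.0576), where 1.41% of all tested genes were called down. This scaling moved the median of all tested genes to 0.311, and 2748 of 14408 genes were called up. Over the 16 alternative settings the limma adjusted p ranged from 0.0110 to 0.651 for Spp1, from 0.00165 to 0.605 for Thbs1 and from 0.0172 to 0.651 for Ltbp2. On the fibroblast-marker scale the Fat1-TAC against WT-TAC comparison called Spp1 (-1.32) and Ltbp2 (-0.90) down and not Thbs1 (-0.78, limma adjusted p = 0.154), where 2.12% of all tested genes were called down and the median was 0.269.

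**Figure D4:**
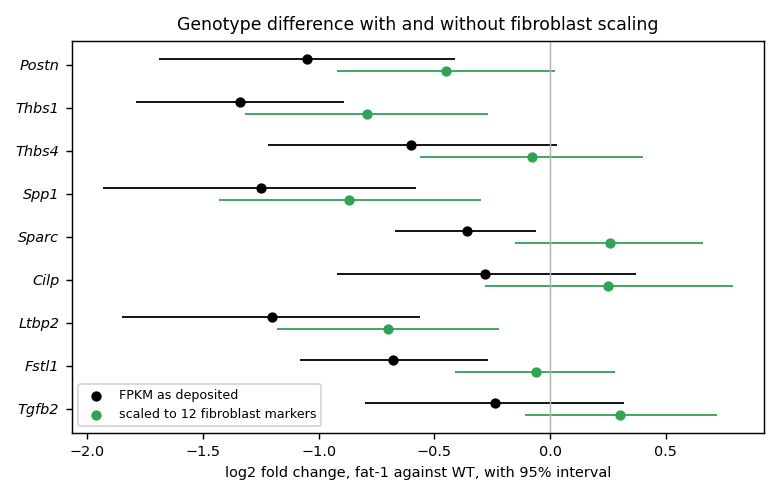
log2 fold change of fat-1 against WT hearts, averaged over both surgeries, with 95% intervals for the 9 tested genes, from FPKM as deposited (black) and after scaling to 12 resting fibroblast markers (green). Spp1, Thbs1 and Ltbp2 keep intervals below 0 after scaling, while Sparc, Cilp and Tgfb2 move above 0, as does the median of all tested genes (0.311).

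Related genes were read from lists of the same biology. Among 20 tested of 22 other matricellular genes, Ccn2, connective tissue growth factor, was downregulated in Fat1-TAC against WT-TAC (log2 fold change -1.67, SE 0.22, limma adjusted p = 0.0384), and 0 others passed the test, beside 1.39% of all tested genes called down. Ccn2 measured 50.9 and 52.9 FPKM in WT-TAC, 39.7 and 35.3 FPKM in WT-Sham, 33.4 and 21.3 FPKM in Fat1-Sham and 16.5 and 14.9 FPKM in Fat1-TAC. Both Fat1-TAC libraries were below all others. The list's median log2 fold change was -0.90 beside -0.404 for all tested genes.

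Among 17 tested activated fibroblast and myofibroblast genes, 3 were downregulated in Fat1-TAC against WT-TAC, where 1.39% of all tested genes were. These were Sfrp2, a secreted Wnt modulator (-2.36, SE 0.38, limma adjusted p = 0.0682), Fn1, fibronectin (-1.69, SE 0.34, limma adjusted p = 0.0997), and Eln, elastin (-1.22, SE 0.24, limma adjusted p = 0.0997). Sfrp2 and Fn1 were highest in WT-TAC, at 20.3 and 18.0 FPKM for Sfrp2 and 63.2 and 66.8 FPKM for Fn1, against 2.26 and 3.71 FPKM and 14.7 and 25.8 FPKM in Fat1-TAC. Eln differed in another way, with 31.3 and 27.5 FPKM in WT-TAC, 29.3 and 36.4 FPKM in WT-Sham, 37.0 and 23.5 FPKM in Fat1-Sham and 13.0 and 11.2 FPKM in Fat1-TAC. The list's median was -1.16.

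In the TGF-beta pathway, 1 of 22 tested genes was downregulated in Fat1-TAC against WT-TAC, Pmepa1, a SMAD target that dampens the pathway (-0.89, SE 0.17, limma adjusted p = 0.0929), where 1.39% of all tested genes were called down, and the list's median was -0.55. Of 18 tested receptors of matricellular proteins 0 were called by limma, with 10 lower and 1 higher at an unadjusted p under 0.05 and over 1.5-fold, where 23.5% and 1.72% of all tested genes were, and with a median of -0.63. Itga4 (24.2 FPKM in WT-TAC1, 0.923 to 2.43 FPKM elsewhere) was high in the library with thymocyte mRNA. Itga8, integrin alpha 8, measured 27.3 FPKM in WT-Sham2, 20.4 and 28.3 FPKM in WT-TAC, 12 FPKM in Fat1-Sham1 and 2.08 to 3.13 FPKM in the other 4 libraries.

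These 5 calls kept a negative sign in 17 alternative settings and passed the test in 9 of them for Ccn2, 6 for Sfrp2, 2 for Fn1, 1 for Eln and 2 for Pmepa1. With limma-voom, Ccn2 and Sfrp2 were called. The log2 fold change ranged from -1.73 to -0.90 for Ccn2 and from -1.01 to -0.14 for Pmepa1.

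For TAC in WT hearts, 0 genes of these 4 lists were called by limma or by limma-voom. At an unadjusted p under 0.05 and over 1.5-fold, 3 of 20 other matricellular genes, 6 of 17 activated fibroblast genes, 4 of 22 TGF-beta pathway genes and 5 of 18 receptors were higher, where 22.7% of all tested genes were. The largest differences in activated fibroblast genes were those of Runx1 (2.0, SE 0.67) and Sfrp2 (1.86, SE 0.38), and the most negative in that list were Meox1, a homeobox factor of fibroblasts (-0.73, SE 0.28), and Fbn1, fibrillin 1 (-0.55, SE 0.21). Runx1 measured 20.2 FPKM in WT-TAC1 and 3.03 FPKM in WT-TAC2. The extremes of the other lists were Ccn3 (1.10, SE 0.80), Smoc1 (1.07, SE 0.45), Sparcl1 (0.01, SE 0.19) and Fbln2 (-0.17, SE 0.17) among matricellular genes, Nrros (1.30, SE 0.57), Tgfbr1 (0.97, SE 0.38), Bambi (-0.20, SE 0.24) and Eng (-0.34, SE 0.16) in the TGF-beta pathway, and Itga4 (2.10, SE 0.80), Itga8 (1.27, SE 0.97), Cacna2d1 (-0.31, SE 0.23) and Cd36 (-0.64, SE 0.27) among receptors. Nrros, Tgfbr1 and Itga4 were each highest in WT-TAC1, at 28.7, 34.3 and 24.2 FPKM against 6.80, 14.1 and 2.43 FPKM in WT-TAC2. The medians of the lists, 0.37, 0.53, 0.44 and 0.45, lay near the 0.390 of all tested genes.

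**Figure D5:**
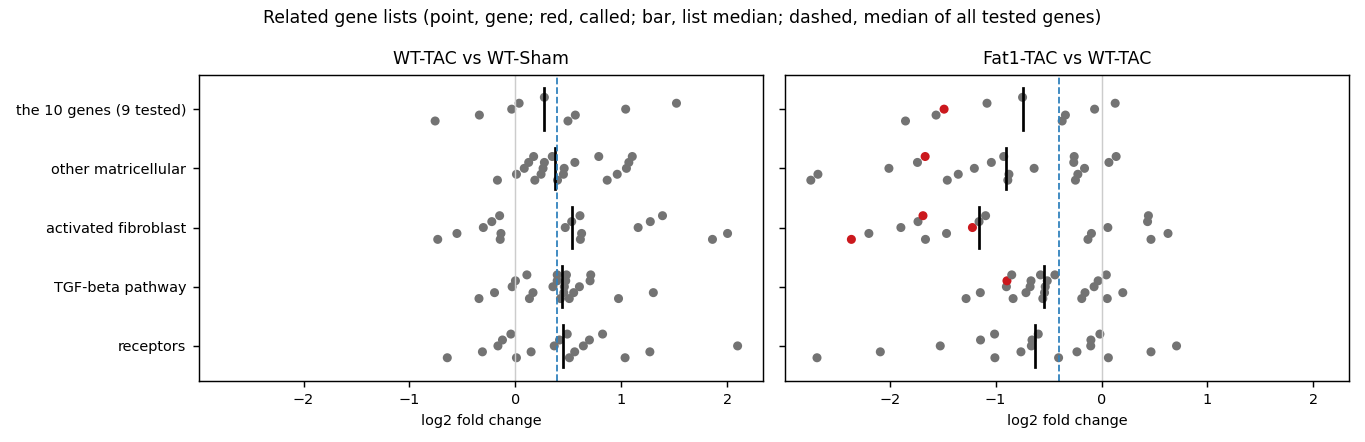
limma log2 fold changes (horizontal axes) of the genes in the 10-gene list and 4 related lists for WT-TAC against WT-Sham and Fat1-TAC against WT-TAC, with a point for each tested gene, called genes in red, list medians as bars and the median of all tested genes as a dashed line. In WT-TAC against WT-Sham 0 genes are red, and in Fat1-TAC against WT-TAC Thbs1, Ccn2, Sfrp2, Fn1, Eln and Pmepa1 are.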

How the data were processed

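Total RNA from 8 mouse hearts was sequenced by the authors with NEBNext Ultra libraries on an Illumina HiSeq (paired-end). Per the methods, reads were filtered for quality and mapped to the reference transcriptome, and the submitters' processing notes name HISAT2 and the build mm10 (GRCm38). The counting program and versions are not given in the sources used here. The authors deposited FPKM values for 25929 genes, and 4 lines without a gene were removed. Gene positions are those of GENCODE M21. Groups follow the sample labels.

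Values were transformed as log2(FPKM + 1) and fitted with limma (version 3.58.1, R 4.3.3; lmFit, eBayes with a trend) over 8 libraries and 4 group means, and p-values were adjusted over 14442 genes. The cutoffs of the study were kept, an adjusted p of 0.1 and a 1.5-fold change. SE is the moderated error of limma. For all 25929 genes a length was found at which the values were whole numbers of fragments, within 0.005 fragments. It was the annotated length for 10670 genes and otherwise the shortest length that fitted, so the search itself could produce a fit. Fragments at these lengths were used for depth and for limma-voom. The fit was tested on simulated data. The 10 genes and all lists were chosen with earlier results of these data known. Of the 4 related lists, the genes called and the 2 highest and 2 lowest log2 fold changes in WT-TAC against WT-Sham are named, and cell type marker lists are given as sums. For the 3 genes with the largest range, the 3 tested genes of nearest pattern are named. Alternatives were other scalings, a pseudocount of 0.1, no filter, only the groups compared, limma-voom, a replicate block and leaving out libraries.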

Additional observations from a re-analysis of the deposited data

How the results depend on the processing

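The count of genes called down in Fat1-TAC against WT-TAC, 1 of 9, was 0 with median of ratios, quantile normalization, a pseudocount of 0.1 and only the groups compared, 2 with scaling to fibroblast markers, and 0 to 5 when 1 library was left out. For Thbs1 the limma adjusted p was 0.113 with the pseudocount of 0.1, 0.248 with quantile normalization and 0.274 with only the groups compared. The highest count came without WT-TAC2, where WT-TAC1 is assumed to vary like the other groups and many more of all tested genes were also called down. When 1 library was left out, genes were called up only without WT-TAC2. These were Spp1 for WT-TAC against WT-Sham (log2 fold change 1.74) and for TAC averaged over both genotypes (1.03), and Thbs4 for the interaction. That setting also called many more of all tested genes up in each of these comparisons than the fit of 8 libraries did. Leaving out WT-TAC1 and Fat1-Sham1 together, chosen after seeing the data, kept the Thbs1 call (-1.76, limma adjusted p = 0.0809). The causes were not tested. Counts for Fat1-TAC against Fat1-Sham and Fat1-Sham against WT-Sham were 0 in every setting run. For the genotype difference averaged over both surgeries, 0 genes called down became 3 with fibroblast scaling, where 1.41% of all tested genes were. Without a filter it became 1, where 44 of 25929 genes were. The count was highest without WT-TAC2, a setting that also called many more of all tested genes down.

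Replicate numbers are shared between groups, but nothing says that they mark shared litters or days. Replicate differences correlated at -0.05 for WT-TAC with WT-Sham, -0.14 for Fat1-TAC with Fat1-Sham, -0.11 for Fat1-Sham with WT-Sham and -0.04 for Fat1-TAC with WT-TAC across genes. With the replicate number as a block, 0 genes were called down in Fat1-TAC against WT-TAC (Thbs1 -1.49, SE 0.24, limma adjusted p = 0.126), and no other call among the 10 genes changed.

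With 2 libraries a group, small differences in these genes were not detectable, and a p that misses the threshold does not show equal levels. Spp1 rests on as few as 8 fragments.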

Other observations

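Of 10 macrophage markers, 3 were called down in Fat1-TAC against WT-TAC, where 1.39% of all tested genes were. They were Lgals3, galectin 3 (log2 fold change -2.49, SE 0.46, limma adjusted p = 0.0859), Gpnmb (-1.88, SE 0.34, limma adjusted p = 0.0836) and Lyz2, lysozyme (-1.02, SE 0.17, limma adjusted p = 0.0705). The list's median was -0.65 beside -0.404 for all tested genes. The part of the airway mRNA of WT-TAC in these values was not tested. Lgals3 measured 46.6 and 26.7 FPKM in WT-TAC, 9.18 and 16.9 FPKM in WT-Sham, 12.9 and 5.39 FPKM in Fat1-Sham and 4.74 and 6.30 FPKM in Fat1-TAC. Acan, aggrecan of cartilage, was called up in WT-TAC against WT-Sham (1.32, SE 0.23, limma adjusted p = 0.0808), where 0.921% of all tested genes were. It measured 1.49 and 2.22 FPKM in WT-TAC and 0.0206 to 0.199 FPKM in the other 6 libraries. Of the 10 cartilage markers 4 were tested, and all 4 log2 fold changes were positive, with 1 call.

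Of 6 hypertrophy genes, 0 were called by limma in WT-TAC against WT-Sham, and 3 log2 fold changes were positive and 3 negative. Acta1 gave -0.61 (SE 0.48) in WT hearts and 0.93 (SE 0.48) in fat-1 hearts. Nppb gave -0.19 (SE 0.28) and -0.67 (SE 0.28). Myh7, the slow myosin heavy chain, measured 28.9 and 47.3 FPKM in WT-Sham, 50.7 and 89.0 FPKM in WT-TAC, 31.1 and 30.5 FPKM in Fat1-Sham and 76.0 and 120 FPKM in Fat1-TAC. Its log2 fold change for TAC was 0.85 (SE 0.35, limma adjusted p = 0.181) in WT hearts and 1.60 (SE 0.35, limma adjusted p = 1.0) in fat-1 hearts. Nppa, atrial natriuretic peptide, ranged from 9.04 FPKM in Fat1-Sham2 to 299 FPKM in WT-TAC1.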
